A study of Arabidopsis thaliana with 12 samples.

Results

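Zinc finger genes other than those described as RING were followed in *Arabidopsis thaliana* roots exposed to gold. A gene was taken when its deposited description contained the words zinc finger and none of RING, ubiquitin or C1 domain. This gave 25 genes of the 2762 named by transcript cluster in the 2 deposited tables. Of these, 8 were among the 800 features of the gene table, and all 25 had exons in the exon table, 39 of its 4977 exons. Another 3 genes with 5 exons were left out because their descriptions say RING.

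Both groups were roots of 12 day old Col-0 seedlings grown hydroponically, each group measured on 3 biological replicates that pooled many seedlings. The gold group stood for 12 h in a 10 ppm solution, written HAuClO4 in the labels and HAuCl4 in the methods, at pH 4.2 and without nutrient medium. The control group stood in distilled water at the same pH. The Affymetrix AraGene-1_0-st array was summarized once per gene and once per exon, so that the 12 deposited samples are 2 summaries of the same arrays. For control and for gold, each table gives the authors' bi-weight mean of the log2 signals, in which outlying arrays weigh less. The paper's methods give a cut at a change of more than 2-fold and an unadjusted p under 0.05. Its counts of changed genes and exons are lower than those of the deposited tables. Only the 2-fold bound was seen here, since p-values were not read. Since only group means were used here, the differences below, gold minus control, carry no error and no test of their own. A gene or exon that is not listed may have differed by less or not at all.

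A zinc finger is a small protein fold held together by a zinc ion, which cysteine and histidine residues bind. Plants use it for very different ends. C2H2 and Dof fingers bind DNA and belong to transcription factors, whereas B-box domains, found in the CONSTANS family, mostly bind other proteins and are known from light signalling and the timing of flowering. CCCH fingers often bind RNA, and AN1 fingers mark the stress-associated proteins. A RING finger, by contrast, is the mark of many ubiquitin ligases.

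A RING finger may nevertheless be present in some members. The exon table describes AT5G60710 and AT5G49665 as C3H4 type, a spelling close to the C3HC4 signature of RING fingers, and RefSeq gives AT1G11100 a synonym that contains RING. These 3 genes were kept, since the rule is on the description. Without them, 29 of 36 member exons were higher in gold, where 54.6% of all listed exons were.

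Most listed zinc finger exons were higher in gold. At the gene level 7 of 8 features were higher, against 65.4% of all listed gene features, and at the exon level 32 of 39 exons, or 82.1%, against 54.6% of all listed exons. The DNA-binding Dof gene, the B-box genes and the CONSTANS-like genes contributed 16 of these 32 exons and none that was lower. The other members gave 16 higher and 7 lower exons. Exons of a gene share their RNA and are not independent, and by the median exon of each gene 19 of 25 genes were higher, against 49.9% of all genes with a listed exon. The median difference was 1.42 over the 8 gene features and 1.31 over the 39 exons, beside 1.15 and 1.06 over all listed gene features and exons. Because nothing between -1 and 1 is listed, these medians mainly follow the balance of directions.

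**Figure D1:**
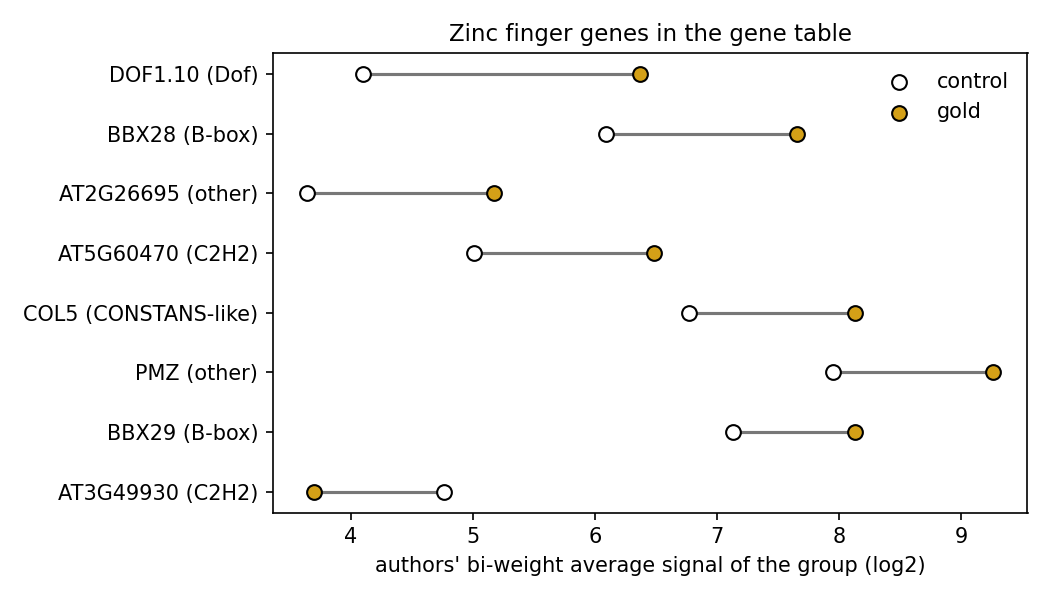
Zinc finger genes in the gene table, with the class read from the description in brackets. Each row is a gene, and the horizontal axis is the authors' bi-weight average log2 signal of the control group (open circle) and of the gold group (filled circle). The gold circle lies to the right for 7 genes and to the left for AT3G49930, and control signals run from 3.64 to 7.95.

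The Dof gene had the largest difference. Dof proteins are plant transcription factors with a single C2C2-type finger, and DOF1.10 (AT1G69570, chromosome 1) is also known as a cycling Dof factor, a group known for repressing the flowering gene CONSTANS. Its gene signal was 4.1 in control and 6.37 in gold, a difference of 2.27 or 4.82-fold. Its 3 listed exons had control signals of 3.03, 5.46 and 6.62 and gold signals of 5.59, 8.11 and 9.1. The differences of 2.56, 2.65 and 2.48 were close to each other. By size of positive difference the gene stood at position 51 of the 800 listed gene features.

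The B-box genes were all higher. BBX28 (AT4G27310, chromosome 4) is a B-box protein known to bind the light-signalling factor HY5 and to hold back its activity. Its gene signal was 6.09 in control and 7.65 in gold, a difference of 1.56 or 2.95-fold. The 4 listed exons had signals between 5.72 and 6.36 in control and between 7.56 and 7.68 in gold, all higher in gold by 1.21 to 1.96. BBX29 (AT5G54470, chromosome 5), another member of the family, had a gene signal of 7.13 in control and 8.13 in gold. That difference of 1.0 lies at the bound of the table, and no smaller difference is listed. Its 2 listed exons had 3.92 and 8.1 in control and differed by 1.14 and 1.12.

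The CONSTANS-like genes carry B-boxes and the CCT domain of CONSTANS, the photoperiod regulator of flowering. COL5 (AT5G57660, chromosome 5), known to promote flowering in short days when overexpressed, had a gene signal of 6.77 in control and 8.13 in gold, a difference of 1.36 or 2.57-fold. Its 4 listed exons had control signals from 3.61 to 9.41 and differences between 1.17 and 1.69. Signals of different exons come from different probes and do not rank RNA levels. COL1 (AT5G15850, chromosome 5) and COL2 (AT3G02380, chromosome 3) are the closest relatives of CONSTANS and were listed by exons only. The COL1 exons went from 6.21 to 8.06 and from 3.93 to 5.5, differences of 1.85 and 1.57. The only listed COL2 exon had low signals, 2.86 in control and 4.18 in gold. Together the B-box and CONSTANS-like genes had 13 listed exons, all higher in gold, from 5 genes.

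**Figure D2:**
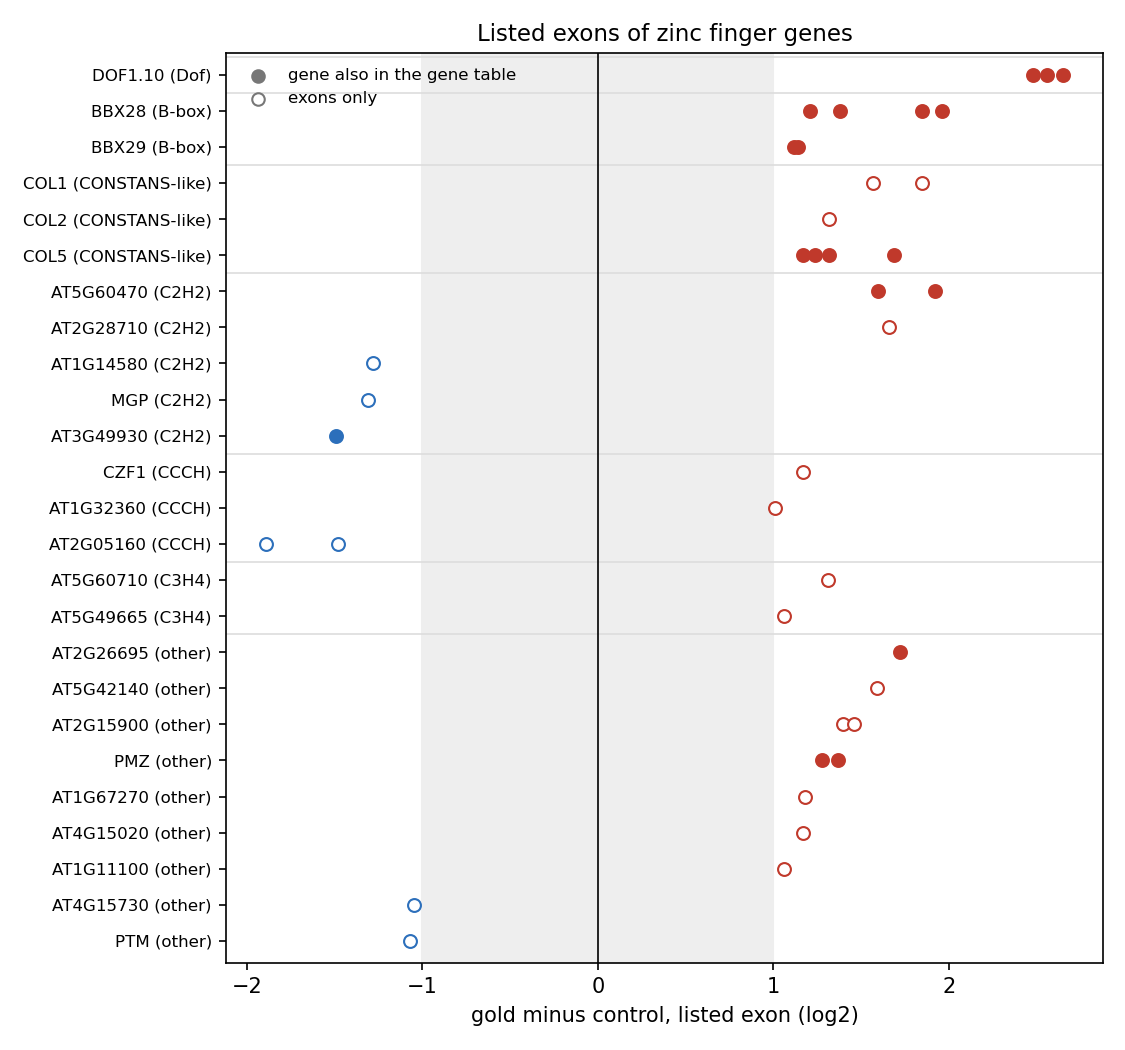
Listed exons of the 25 zinc finger genes, grouped by class. The horizontal axis is gold minus control on the log2 scale, each point is an exon, filled where the gene is also in the gene table, red where higher and blue where lower, and the grey band covers differences that the tables do not list. All exons of the Dof, B-box and CONSTANS-like genes lie to the right, the C2H2 and CCCH genes lie on both sides, and no gene has exons on both sides.

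The C2H2 class was split, with 3 exons higher and 3 lower over 5 genes, and by the median exon 2 of the 5 genes were higher. AT5G60470 (chromosome 5), described as a C2H2 and C2HC zinc finger-containing protein, had gene signals of 5.01 in control and 6.48 in gold, a difference of 1.47. Its exons went from 4.78 to 6.7 and from 4.21 to 5.81. AT2G28710 (chromosome 2), described as C2H2-type, had a single listed exon at 4.97 in control and 6.63 in gold. The other members of the class were lower. AT3G49930 (chromosome 3), with the same description as AT5G60470, was the only member lower in the gene table, at 4.76 in control and 3.7 in gold, a difference of -1.06. Its exon had 6.94 and 5.45.

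The class also holds a known factor of root patterning. MAGPIE (MGP, AT1G03840, chromosome 1) is a C2H2 factor that works with SHORT-ROOT and SCARECROW in forming the root ground tissue, the cortex and endodermis. Its listed exon had 7.19 in control and 5.88 in gold, a difference of -1.31. The exon of AT1G14580 (chromosome 1), described as C2H2-like, had 9.54 and 8.26, a difference of -1.28. Neither gene was in the gene table. A list of 10 loci of this ground tissue network held both genes, and the only other listed locus was CYCD6;1, a cyclin that SHORT-ROOT and SCARECROW are known to switch on. Its exon had 8.78 in control and 7.61 in gold. All 3 listed loci, the members MGP and AT1G14580 among them, were lower. The list does not hold the other C2H2 members, which went both ways. As gene features AT5G60470 differed by 1.47 and AT3G49930 by -1.06, so the shared direction covers only the loci chosen for the list. Of all listed exons whose gene is not in the gene table, 1539 of 2652 were lower. Without the members, already known to be listed, 1 of 8 loci of the list had a listed exon, or 12.5%, near the 9.69% of all protein-coding loci named in the exon table. SHORT-ROOT, SCARECROW and the other loci of the list were not listed, so their levels are unknown here.

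The CCCH class gave 2 exons higher and 2 lower. CZF1 (AT2G40140, chromosome 2), also called SALT-INDUCIBLE ZINC FINGER 2 and known from salt tolerance, had an exon at 3.49 in control and 4.66 in gold. The exon of AT1G32360 (chromosome 1), described as CCCH domain-containing protein 12, went from 5.93 to 6.94. AT2G05160 (chromosome 2), CCCH domain-containing protein 18, was lower in both of its listed exons, from 6.43 to 4.54 and from 6.0 to 4.52. The first of these was the lowest difference of a member exon, -1.89 or 3.71-fold. The gene itself was not in the gene table. CZF1 stands in a list of 11 tandem CCCH loci, and 0 of the other 10 had a listed exon, where 9.69% of all protein-coding loci did. The list is short, and its difference from that share was not tested.

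The AN1 class was represented by PMZ (AT3G28210, chromosome 3), or STRESS-ASSOCIATED PROTEIN 12, which is known to respond to cold and salt. Its gene signal was 7.95 in control and 9.26 in gold, a difference of 1.31 or 2.48-fold. Its exons went from 8.22 to 9.59 and from 9.34 to 10.62, differences of 1.37 and 1.28. In a list of 13 stress-associated protein loci, 0 of the other 12 had a listed exon, again beside 9.69% of all protein-coding loci. AT2G26695 (chromosome 2), described as Ran BP2/NZF zinc finger-like, had gene signals of 3.64 in control and 5.17 in gold, and its exon went from 5.84 to 7.56. A list of 10 C2H2 loci of the ZAT and AZF group, known from stress responses, holds ZAT10 and ZAT12. It had 0 listed genes and 0 listed exons, where 2.3% and 9.69% of all protein-coding loci are named in the gene and exon tables. The list held none of the C2H2 members described above, so its result covers only these 10 loci. Both this list and that of the stress-associated proteins are short, and their difference from these shares was not tested.

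The other members were listed by exons only, and several of their descriptions join the finger with another domain. Higher exons belonged to AT5G42140, which joins RCC1 repeats with a FYVE finger and went from 3.1 to 4.69, and to AT4G15020, of the hAT and BED transposase type, from 4.97 to 6.14. AT1G67270, described by the finger of monoamine-oxidase A repressor R1, went from 2.3 to 3.48. AT1G11100, an SNF2 helicase, went from 6.37 to 7.43, and the C3H4 genes AT5G60710 and AT5G49665 from 7.7 to 9.01 and from 9.16 to 10.22. Those that were lower are the CW-type gene AT4G15730, from 6.88 to 5.83, and PTM (AT5G35210), a PHD-type factor with transmembrane domains, from 5.46 to 4.39. The cluster of AT2G15900 also names the neighbouring AT2G15910, and its description joins a phox domain with a CSL zinc finger. Its 2 exons were higher by 1.4 and 1.46, but the signal cannot be given to either gene alone.

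Gene and exon summaries were set side by side. All 19 listed exons of the 8 genes in the gene table had the direction of their gene. Both summaries come from the same arrays, so this agreement is largely built in. The same share over all genes of the gene table was not computed, and nothing particular to zinc finger genes is read from it. BBX28, BBX29, COL5, PMZ, DOF1.10, AT5G60470, COL1, AT2G05160 and the AT2G15900 cluster had 2 or more listed exons, and 0 of these 9 had exons in both directions, beside 2.91% of all 927 such genes. The other 17 genes were listed by exons alone, 14 of them by a single exon. In these 17 genes 14 of 20 exons were higher, or 70.0%, against 42.0% of all listed exons whose gene is not in the gene table. Of member exons, 25.6% had a brighter group average under 6, against 22.3% of all listed exons. A difference of 3-fold or more was reached by 33.3% of member exons and 31.8% of all listed exons.

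**Figure D3:**
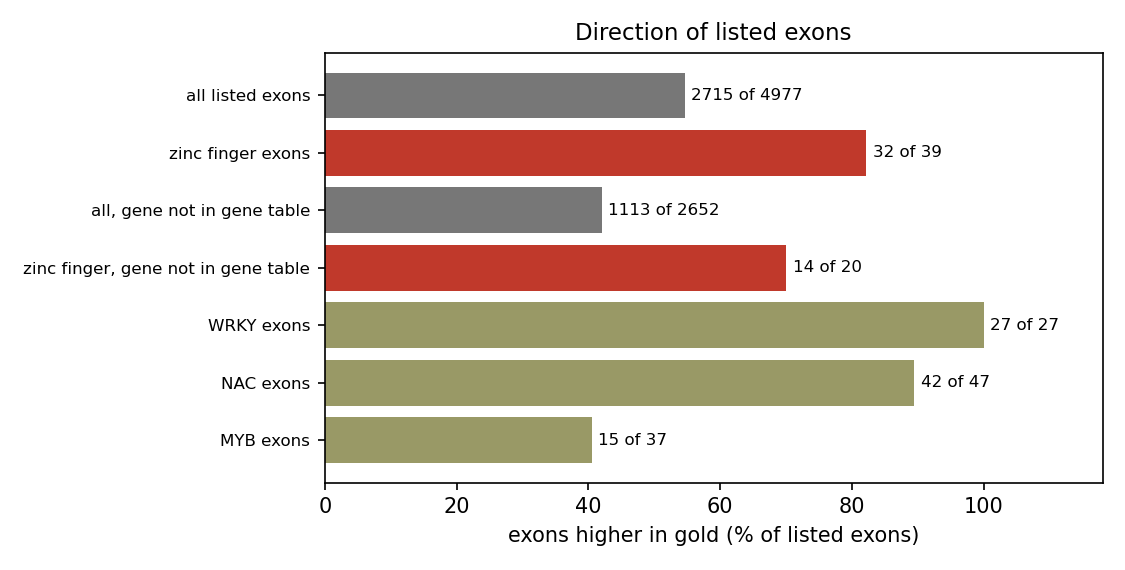
Share of listed exons higher in gold, in percent of the listed exons of each set, with the counts at the bars. Zinc finger exons (red) reach 82.1% beside 54.6% for all listed exons, and 70.0% beside 42.0% where the gene is not in the gene table (grey bars, all listed exons), with WRKY, NAC and MYB exons at 100.0%, 89.4% and 40.5%.

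Other families of transcription factors, found by name in the descriptions, lay on either side. All 27 WRKY exons and 42 of 47 NAC exons were higher in gold, while 15 of 37 MYB exons were. The difference between these families and the zinc finger genes was not tested.

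B-box, CONSTANS-like and cycling Dof genes are known for daily rhythms, so loci of the circadian clock and of photoperiodic flowering were read from a list of 30. Listed exons were found for 7 of them. Without DOF1.10, itself a member, this left 6 of 29, or 20.7%, against 9.69% of protein-coding loci. A locus counts here by any listed exon, and the shares were not matched for the number of exons per gene. The list was chosen with earlier results of these data known, and the difference was not tested. Of the 7, 6 had only higher exons, DOF1.10 among them, and PRR3 had a lower exon. By the median exon, 49.9% of all genes with a listed exon were higher. PRR9 (AT2G46790), a repressor of the morning clock genes, was listed as a gene, at 4.75 in control and 6.8 in gold, a difference of 2.05 or 4.14-fold. Its 6 listed exons differed by 1.85 to 2.83. DOF1.10 was the other locus of the list in the gene table. PRR7, of the same family of pseudo-response regulators, had 3 exons higher by 1.01 to 1.23. The transcriptional co-activators LNK1 (AT5G64170) and LNK2 (AT3G54500) had exons higher by 1.02 to 2.5 and by 1.01 to 2.14. GI, a partner of the photoperiod ubiquitin ligase FKF1, had an exon at 5.69 and 6.86. PRR3 was lower, at 7.89 and 6.71. The core clock genes CCA1, LHY and TOC1 and the flowering genes CONSTANS and FT were not listed. Of the 32 loci of the whole B-box family, the 5 members described above were in the exon table, and members were taken only from listed genes. None of the other 27 loci was listed in either table. Of all protein-coding loci, 2.3% are named in the gene table and 9.69% in the exon table. The difference of the family from these shares was not tested.

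**Figure D4:**
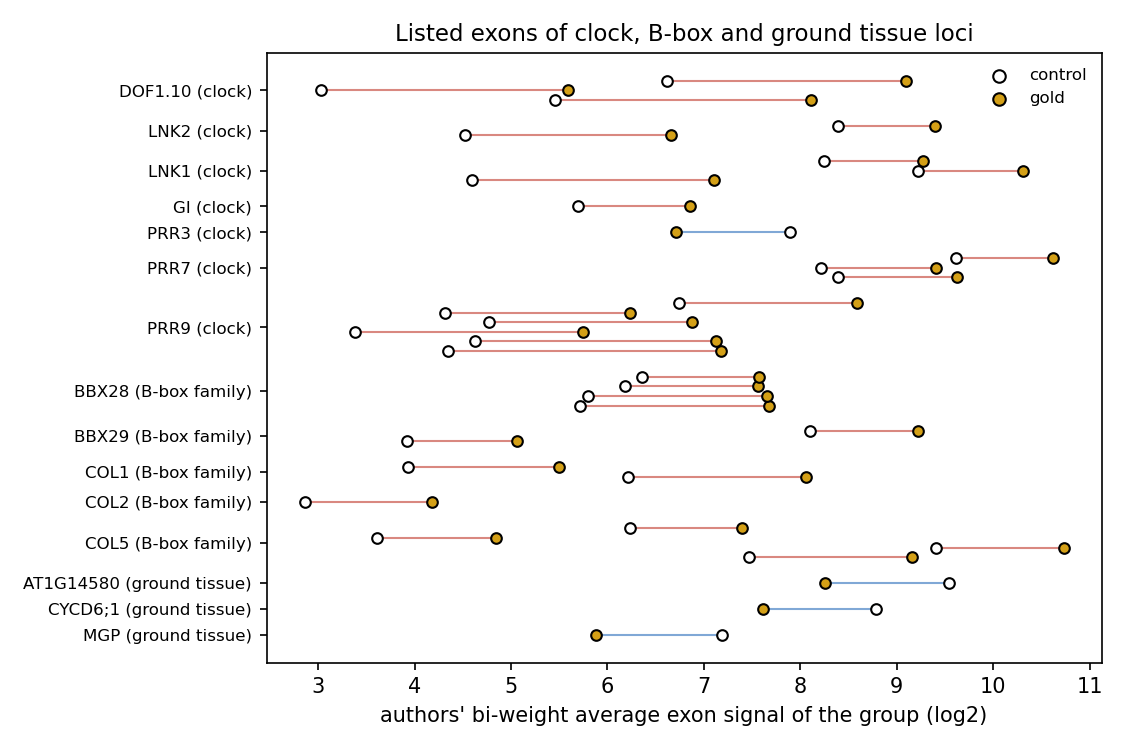
Exon signals of the listed loci of the clock, B-box family and root ground tissue lists. Each line joins the authors' bi-weight average log2 signal of an exon in control (open circle) and in gold (filled circle), red where higher and blue where lower in gold. The ground tissue loci and PRR3 run to the left, and all other lines run to the right.

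Genes of green tissue were looked up beside these light-related genes. Descriptions naming chlorophyll a/b binding proteins, photosystems or the small Rubisco subunit gave 0 features in the gene table and 7 exons of 6 genes in the exon table. Of these exons, 6 were higher in gold, or 85.7%, beside 54.6% of all listed exons and 42.0% of those whose gene is not in the gene table. They include LHCB4.2 at 6.53 and 7.61 and LHCB2.1 at 2.88 and 3.88. PnsL2, at 5.97 and 4.13, was lower. Their part in the values of the B-box genes was not tested, and root identity cannot be checked from tables that list only changed features.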

How the data were processed

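Per the paper's methods and the file headers, the authors read the arrays with AGCC, summarized them with RMA in Expression Console and made the tables of changed features in the Transcriptome Analysis Console. The deposited values used here are the authors' bi-weight averages of log2 signal for each group, with the annotation of tair10. The linear fold change, p-value and FDR columns hold the authors' own comparison and were not used. Differences were computed here as gold minus control, and folds from them. Averages are printed to 0.01, which limits each difference, and the number of arrays limits the precision. No test was made, since values of each replicate were not used here. The column named Experiment was taken as gold.

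Member counts were set beside the same count over all listed features, and lists beside protein-coding loci of the RefSeq table (TAIR10.1), in which all 25 members were found. That table gave the names BBX28, BBX29 and PTM, and no coordinate of it is reported. The lists, matched by locus, were the B-box family, clock and photoperiod, root ground tissue, ZAT and AZF, stress-associated proteins and tandem CCCH. The rule for named genes was all gene-table members, members with 2 or more exons, and the largest exon of each class and direction; the rest were named to account for every member. Members and lists were chosen with earlier results of these data known. A planned search of promoter motifs was not run, since no sequences were used here. The clock time of harvest is not given in the sources used here. Counting was tested on simulated data. Python 3.11.15, numpy 2.4.6, pandas 2.3.3 and matplotlib 3.10.9 were used.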

Additional observations from a re-analysis of the deposited data

How the results depend on the processing

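No paired analysis was possible because the tables hold group averages and no value of a single replicate, and leaving out a replicate could not be done for the same reason. Over 30 alternatives no balance of directions reversed, although the even splits of the C2H2 and CCCH exons tipped, and 19 of the 30 left the value within 1.5 times of the reported count or within 0.01 of the reported median. Asking for 3-fold or more left 1 higher and 0 lower gene features (DOF1.10), and 12 higher and 1 lower exons. Counting genes by their median exon gave 19 higher and 6 lower genes, with a median difference of 1.18, and leaving out the genes of the gene table gave 14 higher and 6 lower exons. The median exon of each gene-table member gave a median of 1.47. Leaving out the C3H4 genes and AT1G11100, chosen after seeing the data, gave a median exon difference of 1.32. By class, counting genes left 2 B-box, 3 CONSTANS-like and 1 Dof gene, all higher. A brighter average of at least 6 left 4 CONSTANS-like exons, all higher and none of them from COL2. It also left 2 higher and 3 lower C2H2 exons, and 1 higher and 2 lower CCCH exons. Counting genes gave 2 higher and 1 lower CCCH genes. In 10 of the 39 exons both averages were under 6, and signal over background was not analysed here.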
